A study of Mus musculus with 12 samples.

Results

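The comparison described here is that of gastrocnemius muscle from mice given TSC22D4 shRNA adenovirus with muscle from mice given control shRNA adenovirus, 3 arrays against 3 of 12 in the series. The arrays were chosen by the shRNA named in their titles, and log2 differences of group means were taken for all genes, with most room given to genes outside the interferon response. All animals were BKS.Cg-Dock7m +/+ Leprdb/J mice, 12 weeks old when obtained, a strain without a working leptin receptor that grows obese and develops diabetes. Each animal received 4e+09 plaque-forming units of adenovirus and was killed 1 week later. Control animals 18, 19 and 20 received 4e+09 units of control shRNA virus. TSC22D4 animals 25, 26 and 27 received 2e+09 units of TSC22D4 shRNA virus and 2e+09 of control virus. LCN13 animals 21, 22 and 23 received 2e+09 units of LCN13 shRNA virus and 2e+09 of control virus. TSC22D4+LCN13 animals 29, 30 and 32 received 2e+09 units of each target virus and no control virus. The TSC22D4 and control groups therefore differed both in the TSC22D4 virus and in the dose of control virus, and the 2 cannot be told apart. Every group carried the leptin receptor defect and adenovirus, and no animal without virus was analysed here. Of 7 treated animals per group 3 were put on arrays, and the labels call them representative, so their spread may be smaller than that of all treated animals.

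TSC22D4 is a leucine zipper protein of the TSC22 family that acts as a transcriptional regulator, known best from the liver, where it controls lipid and glucose metabolism. Adenovirus given to mice is taken up largely by the liver, and muscle can then be reached through signals in the blood. Viral DNA and RNA are sensed by cells and induce type I interferon, which acts on a short motif, the interferon-stimulated response element, near the start of antiviral genes. Skeletal muscle consists mostly of large fibres, beside connective tissue, vessels, blood cells and nerve.

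The defining markers of skeletal muscle were present on all arrays, and none of the 20 in the list passed the test between the groups. The targeted transcript itself was not lower. Tsc22d4 measured 6.54, 6.43 and 6.79 on the log2 scale in control arrays and 6.87, 6.86 and 6.75 in the arrays labelled TSC22D4 shRNA, a difference of 0.24 (SE 0.121, limma adjusted p = 0.619). The groups overlapped, so the arrays below are called by their labels, as TSC22D4-labelled and control-labelled. The LCN13 transcript, listed under its present symbol Obp2a, measured from 4.91 to 4.97 in these 6 arrays, close to the lowest value of the table, 4.78.

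Of 23185 named genes, 78 (0.336%) passed at a limma adjusted p below 0.05, 66 lower (0.285%) and 12 higher (0.0518%) in the TSC22D4-labelled arrays. Of the 66 lower genes, 48 belonged to a list of 191 measured interferon-induced genes and 18 did not, while all 12 higher genes lay outside it. At an unadjusted p below 0.05, 2146 genes (9.26%) differed. The counts depended on single arrays: 49 genes passed without control animal 20, 36 without TSC22D4 animal 25, 38 without animal 26 and 48 without animal 27. Without any 1 array outside the interferon list the number of higher genes ranged from 2 to 27 and that of lower genes from 5 to 26. A fit of the 6 arrays of the compared groups alone called 33 genes, among them Ppt1, Yif1b, Gm20559 and Ascc3 of the 30 genes outside the interferon list described below. Of the 30 genes outside the interferon list, 5 passed whichever of the 12 arrays was left out, namely Ppt1, Gm20559, Mir1895, Cdv3 and Igbp1. The other 25 were lost in at least 1 of those fits, though all 30 kept their direction.

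**Figure D1:**
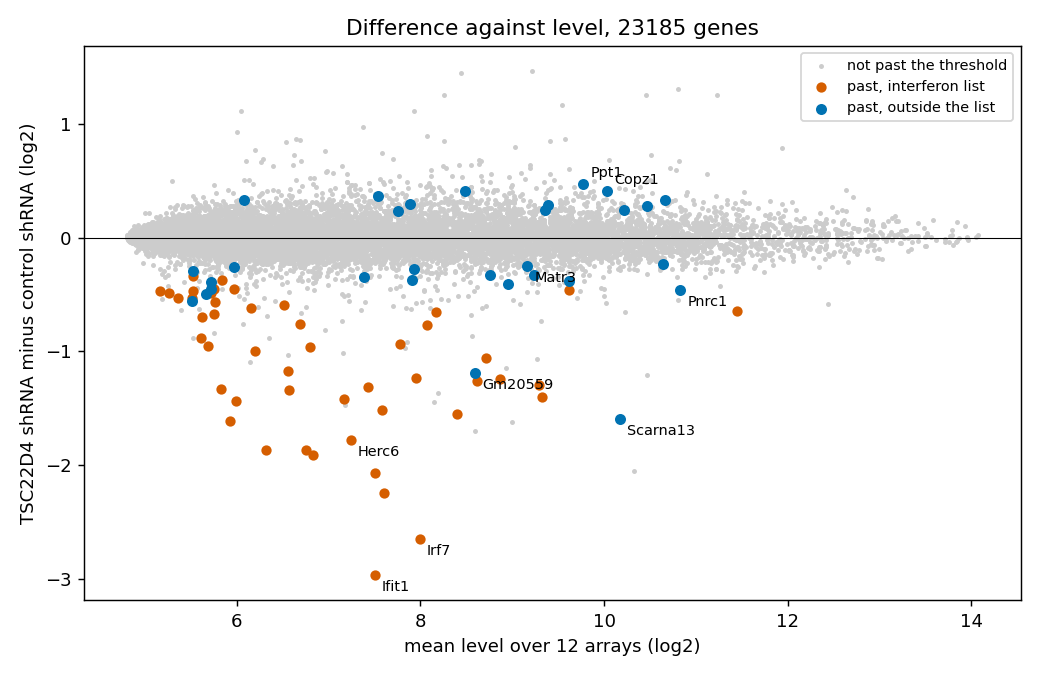
Log2 difference between TSC22D4-labelled and control-labelled arrays (vertical axis) against the mean log2 level over 12 arrays (horizontal axis) for 23185 genes, one point per gene. Orange points are the 48 interferon-list genes and blue points the 30 other genes that passed, and all blue points above 0 lie between 0.24 and 0.47.

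Most of the 30 genes that passed outside the interferon list changed by less than 2-fold. The 12 rises ranged from 0.24 to 0.47 on the log2 scale, which is 1.18-fold to 1.38-fold, and all 12 genes were protein-coding. Of the 18 falls, 2 were larger than 2-fold, and 7 of the 18 genes were not protein-coding. By comparison 23 of the 48 interferon-list genes fell more than 2-fold. Of all genes 46 differed by more than 2-fold, 37 lower and 9 higher, and those not among the 78 did not pass. None of the 30 genes had a mean level below the median of all genes, 5.49. In all 30 the TSC22D4-labelled and control-labelled arrays did not overlap, which held for 7.8% of all genes in the higher and 9.15% in the lower direction.

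The falls among interferon-induced genes set the scale for the rest. Ifit1, an antiviral RNA-binding protein, measured 9.88, 9.31 and 9.66 in control-labelled and 6.50, 6.77 and 6.68 in TSC22D4-labelled arrays, a difference of -2.96 (SE 0.175, adjusted p = 0.000122). Stat2, part of the transcription factor that carries the interferon signal, measured 7.63, 7.46 and 7.83 against 6.71, 6.71 and 6.63, a difference of -0.96 (SE 0.0857, adjusted p = 0.00107). Both genes were high in every control-labelled array and low in every TSC22D4-labelled array. They were low in the other groups as well, with Ifit1 at 7.04, 7.06 and 7.54 in LCN13 and 6.73, 6.50 and 6.35 in TSC22D4+LCN13 arrays, and Stat2 at 6.41, 6.50 and 6.58 and at 6.33, 6.49 and 6.32. Over the 48 genes the median difference from control was -0.98 in TSC22D4-labelled, -1.05 in LCN13 and -1.01 in TSC22D4+LCN13 arrays, 3 comparisons that share the control arrays. Over the 191 list members the median difference was -0.26, against -0.0019 over all genes. The other 143 members did not pass. At an unadjusted p below 0.05, 108 of the 191 members, the 48 included, were lower and 5 higher, against 4.74% and 4.52% of all genes.

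The promoters of these genes, from 250 bases before to 50 after the start, are printed for Ifit1 and Stat2 as 2 falling interferon genes and for Pnrc1 as the one falling gene outside the list whose window holds the same motif. Sequences are from RefSeq, build GRCm38.p6, written in the direction of the gene, with capitals marking matches to GAAANNGAAA on either strand, where N is any base.
Ifit1, chr19:34640639-34640938, plus strand: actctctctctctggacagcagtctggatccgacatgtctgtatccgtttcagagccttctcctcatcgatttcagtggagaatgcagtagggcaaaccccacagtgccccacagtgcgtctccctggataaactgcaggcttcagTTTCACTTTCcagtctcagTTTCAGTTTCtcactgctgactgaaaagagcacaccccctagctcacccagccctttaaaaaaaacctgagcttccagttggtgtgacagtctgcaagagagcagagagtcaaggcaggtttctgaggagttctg
Stat2, chr10:128270248-128270547, plus strand: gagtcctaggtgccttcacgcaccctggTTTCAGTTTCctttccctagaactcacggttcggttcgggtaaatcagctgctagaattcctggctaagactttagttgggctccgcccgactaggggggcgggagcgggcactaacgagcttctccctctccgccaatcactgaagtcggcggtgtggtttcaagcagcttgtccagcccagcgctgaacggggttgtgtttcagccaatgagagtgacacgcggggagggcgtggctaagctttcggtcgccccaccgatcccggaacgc
Pnrc1, chr4:33248738-33249037, minus strand: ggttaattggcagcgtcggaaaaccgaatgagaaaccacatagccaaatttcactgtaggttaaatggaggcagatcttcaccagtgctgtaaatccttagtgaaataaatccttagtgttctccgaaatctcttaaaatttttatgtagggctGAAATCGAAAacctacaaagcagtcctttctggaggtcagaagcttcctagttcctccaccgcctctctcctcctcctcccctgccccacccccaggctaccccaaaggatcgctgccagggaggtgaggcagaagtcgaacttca
The Ifit1 window holds 2 matches and the other windows 1 each. Of the interferon-list genes that fell, 34 of 48 had a window and 15 of those (44.1%) held the motif, against 3.99% of 27025 genes with a window. Of the interferon-list genes that did not pass, 45 of 115 with a window (39.1%) held it too. Of the falling genes outside the list 1 of 11 with a window held it, and of the rising genes 0 of 11 did. A match is a run of letters and no measure of binding.

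Ppt1, the lysosomal enzyme that removes palmitate from proteins and whose loss causes infantile neuronal ceroid lipofuscinosis in humans, showed the largest of the 12 rises. It measured 9.46, 9.48 and 9.43 in control-labelled and 9.90, 9.94 and 9.93 in TSC22D4-labelled arrays, with a gap between the groups much wider than the spread within either. The difference was 0.47 (SE 0.0391, adjusted p = 0.000805), or 1.38-fold. LCN13 arrays lay between, at 9.84, 9.77 and 9.67, and did not overlap with either group. The other measured lysosomal genes did not pass, 45 of 46, with a median over the list of 0.06, and among them Asah1, acid ceramidase, differed by 0.34 and Ctss, cathepsin S, by -0.19. Of the 46, 8 were higher and 4 lower at an unadjusted p below 0.05, against 4.52% and 4.74% of all genes.

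A pair of rising genes, Copz1 and Copz2, code for the alternative zeta subunits of coatomer, the COPI coat that returns vesicles from the Golgi to the endoplasmic reticulum. Copz1 measured 9.90, 9.81 and 9.71 in control-labelled and 10.25, 10.18 and 10.22 in TSC22D4-labelled arrays, a rise of 0.41 (SE 0.069, adjusted p = 0.0494). Copz2 measured 9.04, 9.15 and 9.12 against 9.33, 9.40 and 9.45, a rise of 0.29 (SE 0.0397, adjusted p = 0.0148). The groups did not overlap for either gene, but Copz1 passed in only 3 of the 12 fits that left out 1 array and Copz2 in 9. In LCN13 arrays the subunits parted: Copz1 stood at 9.92, 9.95 and 9.74, within or close to the control range, and Copz2 at 9.39, 9.38 and 9.31, within or close to the TSC22D4 range. The large coat subunits Copa and Copb1 differed by 0.02 and 0.01 (adjusted p = 0.948 and 0.985). In the list of 30 COPI and Golgi genes 2 rose and 28 did not pass, among them Kdelr3, a receptor that retrieves proteins to the endoplasmic reticulum, at 0.67, Kdelr2 at 0.33 and Copg2, another coatomer subunit, at 0.31. The list median was 0.01. Yif1b, which was not in the list, is a membrane protein of the early secretory pathway and rose from 10.24, 10.25 and 10.26 to 10.51, 10.50 and 10.55 (difference 0.27, SE 0.0364, adjusted p = 0.0135).

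Both zeta subunit genes host a microRNA, Mir148b in Copz1 and Mir152 in Copz2, and the mature forms share a seed (bases 2 to 8, in capitals). They are shown because host and microRNA lie in the same transcription unit and had separate probe sets. Sequences are from RefSeq, GRCm38.p6, 5′ to 3′.
mmu-miR-148b-3p: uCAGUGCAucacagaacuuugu
mmu-miR-152-3p: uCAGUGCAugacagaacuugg
The probe sets of Mir148b and Mir152 did not pass, with differences of -0.03 (adjusted p = 0.858) and -0.01 (adjusted p = 0.949). Their mean levels, 4.98 and 5.16, lay in the lowest part of the scale, and the column used for RNA extraction recovers short RNAs poorly, so the mature forms were not assessed.

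The remaining rises included genes of mitochondria and genes that act on RNA. Mrps18b, of the small subunit of the mitochondrial ribosome, measured 10.43, 10.35 and 10.40 in control-labelled and 10.71, 10.83 and 10.62 in TSC22D4-labelled arrays, a rise of 0.33 (SE 0.0497, adjusted p = 0.0285) with no overlap. Among the 74 measured genes of that ribosome it was the only one to pass in either direction. The list median was 0.05 and 48 of the 74 members lay above 0, a larger share than the 48.3% of all genes. At an unadjusted p below 0.05, 15 of the 74 were higher and 4 lower, against 4.52% and 4.74% of all genes. The uncalled members reached 0.39 for Mrpl19 and -0.37 for Mrps16. Smim20, an assembly factor of cytochrome c oxidase, rose by 0.24 (adjusted p = 0.0385) and passed in 2 of 12 fits without 1 array. Znrd1, a subunit of RNA polymerase I, rose by 0.29 (adjusted p = 0.0494). Helz and Dhx57, both helicase-type proteins that act on RNA, rose by 0.24 each (adjusted p = 0.0294 and 0.0143).

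Ggcx, the vitamin K-dependent carboxylase of the endoplasmic reticulum, measured 7.15, 7.11 and 7.23 in control-labelled and 7.51, 7.57 and 7.51 in TSC22D4-labelled arrays. The rise of 0.37 (SE 0.0604, adjusted p = 0.0464) was matched in LCN13 arrays, at 7.67, 7.50 and 7.43, which lie on both sides of the TSC22D4 values. Nicn1, a subunit of the complex that adds glutamate chains to tubulin, differed in this respect. It measured 8.37, 8.29 and 8.25 in control-labelled, 8.42, 8.36 and 8.30 in LCN13 and 8.71, 8.77 and 8.66 in TSC22D4-labelled arrays, so that LCN13 overlapped with control and not with TSC22D4. Its rise was 0.41 (SE 0.0555, adjusted p = 0.0143). Arhgap24, a GTPase-activating protein for Rac, rose by 0.33 (adjusted p = 0.0485) from a level of 5.86 to 5.99 in control-labelled arrays.

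**Figure D2:**
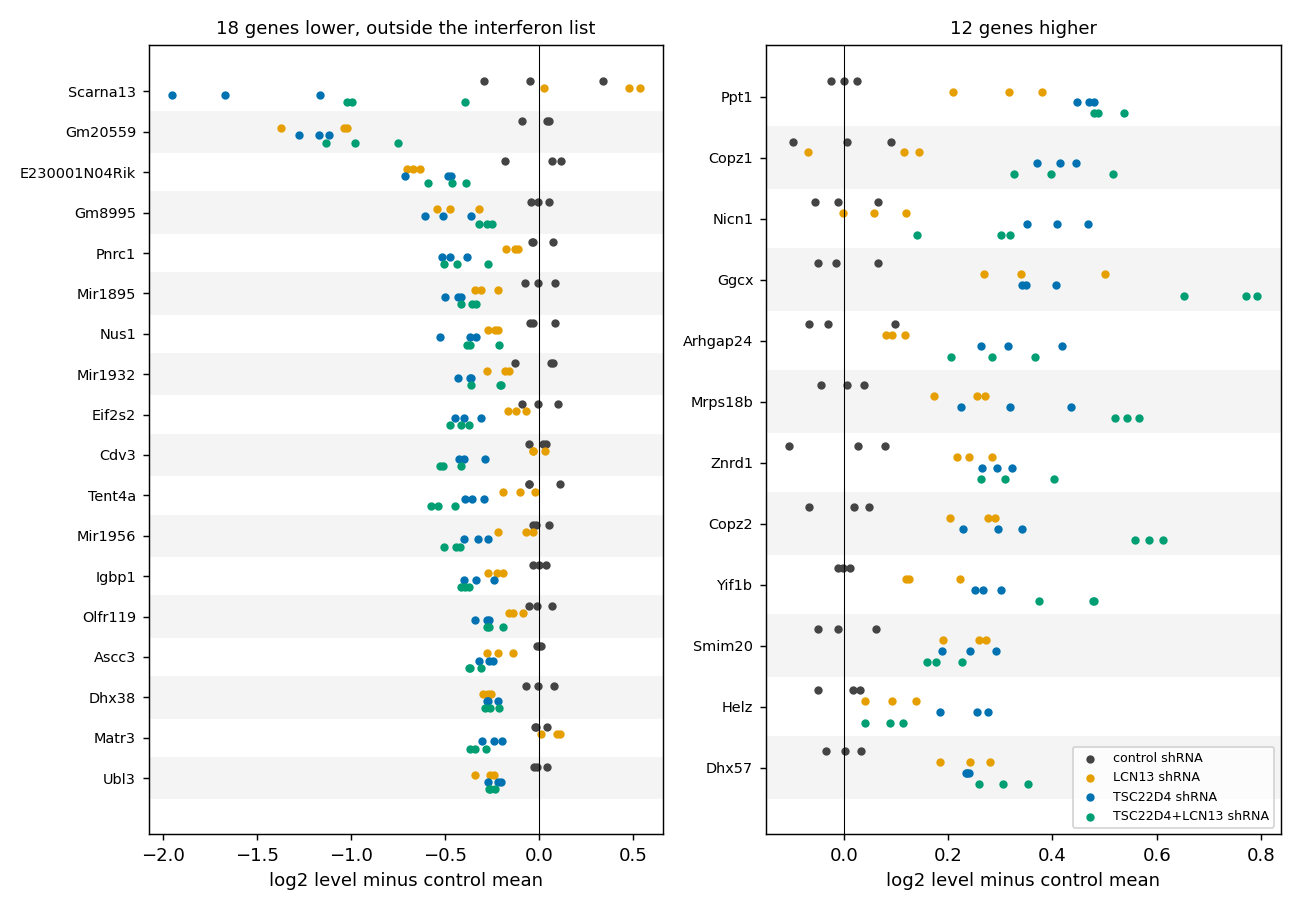
Log2 level of each array minus the control mean (horizontal axis) for the 18 genes that were lower and the 12 that were higher outside the interferon list; each dot is 1 array and colours give the 4 groups, 3 arrays each. The TSC22D4-labelled (blue) and control-labelled (grey) dots do not overlap for any gene, whereas the LCN13 dots (orange) lie near control for genes such as Cdv3 and Nicn1 and near TSC22D4 for genes such as Ubl3 and Smim20.

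The protein-coding genes that fell are known for several roles. Pnrc1, a small coregulator of nuclear receptors, measured 11.04, 11.04 and 11.15 in control-labelled and 10.56, 10.70 and 10.61 in TSC22D4-labelled arrays, a difference of -0.46 (SE 0.0602, adjusted p = 0.0129), or 1.37-fold. Eif2s2, the beta subunit of the initiation factor that brings the first tRNA to the ribosome, measured 9.95, 9.85 and 9.76 against 9.41, 9.46 and 9.54, a difference of -0.38 (SE 0.0533, adjusted p = 0.0152). For both genes every TSC22D4-labelled array was below every control-labelled one. The LCN13 arrays, at 10.95, 10.90 and 10.96 for Pnrc1 and 9.79, 9.73 and 9.69 for Eif2s2, lay between or at the lower edge of control.

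Matr3, a nuclear matrix protein that binds RNA, measured 9.33, 9.27 and 9.27 in control-labelled and 9.05, 8.99 and 9.09 in TSC22D4-labelled arrays (difference -0.25, SE 0.0388, adjusted p = 0.0327). It passed in 5 of 12 fits without 1 array. Cdv3, a gene of poorly known function, measured 8.15, 8.07 and 8.17 against 7.70, 7.84 and 7.73 (difference -0.37, SE 0.0448, adjusted p = 0.00816). The LCN13 arrays of both genes overlapped with control, at 9.40, 9.30 and 9.38 for Matr3 and 8.10, 8.10 and 8.16 for Cdv3. Tent4a, a poly(A) polymerase that is not the canonical one, fell by 0.35 (adjusted p = 0.0494) and passed in 1 of 12 fits without 1 array. Dhx38, a helicase of the spliceosome, and Ascc3, a helicase of a complex that acts in alkylation repair and on stalled ribosomes, fell by 0.26 and 0.28 (adjusted p = 0.0244 and 0.0119).

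Igbp1, which binds the catalytic subunit of protein phosphatase PP2A, measured 9.03, 9.00 and 8.97 in control-labelled and 8.76, 8.60 and 8.66 in TSC22D4-labelled arrays (difference -0.33, SE 0.0397, adjusted p = 0.00877). Nus1, a subunit of the enzyme that makes the lipid carrier dolichol, fell by 0.41 (adjusted p = 0.0228), and Ubl3, a membrane-anchored ubiquitin-like protein, by 0.23 (adjusted p = 0.0176). LCN13 arrays for Ubl3, at 10.50, 10.58 and 10.60, overlapped with the TSC22D4 values of 10.62, 10.64 and 10.56, and all 6 were below the control values of 10.88, 10.81 and 10.83. Olfr119, an olfactory receptor gene by sequence, fell by 0.30 (adjusted p = 0.0127) near the low end of the scale, where its neighbours Olfr118, Olfr120 and Olfr117 differed by -0.01, -0.02 and 0.02.

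The uncharacterised gene Gm20559 measured 9.46, 9.32 and 9.46 in control-labelled, 8.14, 8.29 and 8.24 in TSC22D4-labelled, 8.39, 8.04 and 8.37 in LCN13 and 8.28, 8.66 and 8.43 in TSC22D4+LCN13 arrays. Only the control group stood apart. The difference was -1.19 (SE 0.111, adjusted p = 0.00141), or 2.28-fold, and it passed whichever array was left out. In the RefSeq annotation its nearest measured neighbours are Gm8579 and Samd9l, the latter an interferon-induced gene, with differences of -0.21 (adjusted p = 0.761) and -0.40 (adjusted p = 0.0721). E230001N04Rik and Gm8995, also uncharacterised, fell by 0.55 (adjusted p = 0.0376) and 0.49 (adjusted p = 0.0148), and their neighbours measured here did not pass. E230001N04Rik passed in 3 and Gm8995 in 7 of the 12 fits without 1 array.

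Of 538 microRNA gene probe sets 3 (0.558%) were lower, where 0.285% of all genes were, and none was higher. Their mature sequences are given to show that they share no seed (capitals, bases 2 to 8; RefSeq, GRCm38.p6, 5′ to 3′).
mmu-miR-1895, chr3:134240515-134240536, minus strand: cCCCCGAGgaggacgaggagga
mmu-miR-1932, chr11:119390524-119390545, plus strand: gUUGCGGAcagcgcuaggucgg
mmu-miR-1956, chr3:138526425-138526446, plus strand: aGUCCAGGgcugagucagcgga
Mir1895 lies within Cxxc4 and measured 5.91, 5.99 and 6.08 in control-labelled and 5.58, 5.49 and 5.56 in TSC22D4-labelled arrays (difference -0.45, SE 0.0472, adjusted p = 0.00304), while Cxxc4 differed by 0.05 (adjusted p = 0.772). Mir1956 lies within Eif4e and fell by 0.33 (adjusted p = 0.0323), while Eif4e differed by 0.13 (adjusted p = 0.609). Mir1932 fell by 0.39 (adjusted p = 0.0374) and lies within Rnf213, an interferon-induced gene that fell by 1.55 (adjusted p = 0.000343). A probe set on such a gene cannot separate the mature microRNA from its precursor or from the host transcript.

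Among genes that passed, the largest fall outside the interferon list was that of Scarna13, a small Cajal body RNA of the H/ACA kind, which guides the conversion of uridine to pseudouridine in other RNAs. It measured 10.39, 10.64 and 11.03 in control-labelled, 11.22, 10.71 and 11.16 in LCN13, 8.73, 9.52 and 9.02 in TSC22D4-labelled and 9.66, 10.29 and 9.69 in TSC22D4+LCN13 arrays. Both groups with TSC22D4 virus lay below both groups without it. The difference from control was -1.59 (SE 0.254, adjusted p = 0.0365), or 3.02-fold, and that from LCN13 -1.94 (adjusted p = 0.0464). It passed against control in 4 of the 12 fits without 1 array.

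Because of Scarna13 the other measured RNAs of its kind were examined, a group of 42 put together after the values had been seen. Scarna13 was the only one to pass, but 37 lay below 0, where 51.6% of all genes did, and 19 were lower and none higher at an unadjusted p below 0.05, against 4.74% and 4.52% of all genes. The median difference was -0.22. Snora17 measured 10.36, 10.72 and 11.19 in control-labelled and 9.39, 9.42 and 9.83 in TSC22D4-labelled arrays (difference -1.21, adjusted p = 0.116), and Snora73a 6.09, 6.28 and 6.49 against 5.48, 5.58 and 5.53 (difference -0.76, adjusted p = 0.0993). For both the groups did not overlap. Snora73b and Snora16a differed by -1.37 (adjusted p = 0.108) and -1.70 (adjusted p = 0.171), with wide spread in each group.

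Members of such a group share RNA preparation and array, so they are not independent measurements. The mean deviation of the 42 RNAs from their 12-array means was 0.04 to 0.26 in control-labelled, 0.16 to 0.34 in LCN13, -0.37 to -0.14 in TSC22D4-labelled and -0.23 to 0.00 in TSC22D4+LCN13 arrays. The 65 small nucleolar RNAs of the C/D kind, which guide methylation, had a median of -0.04, with 39 below 0. Of these 65, 9 were lower and 1 higher at an unadjusted p below 0.05, against 4.74% and 4.52% of all genes. These RNAs are cut from introns of host genes, and the hosts looked up did not pass: Snhg10, host of Scarna13, differed by -0.04 (adjusted p = 0.889), Snhg7, host of Snora17, by -0.02 (adjusted p = 0.948), and Snhg3, host of Snora73a and Snora73b, by -0.12 (adjusted p = 0.466). Rpl23, host of Snora21, differed by -0.24 (adjusted p = 0.0888), Kansl2, host of Snora34, by -0.12 and Snhg12, host of Snora16a, by 0.05. Of 18 measured Snhg genes 4 were lower and 0 higher at an unadjusted p below 0.05, against 4.74% and 4.52% of all genes. Snhg10 and Snhg7 had mean levels of 5.69 and 5.53, near the median of all genes, 5.49. The recovery of short RNAs by the extraction column can vary between samples; its part in these values was not tested.

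**Figure D3:**
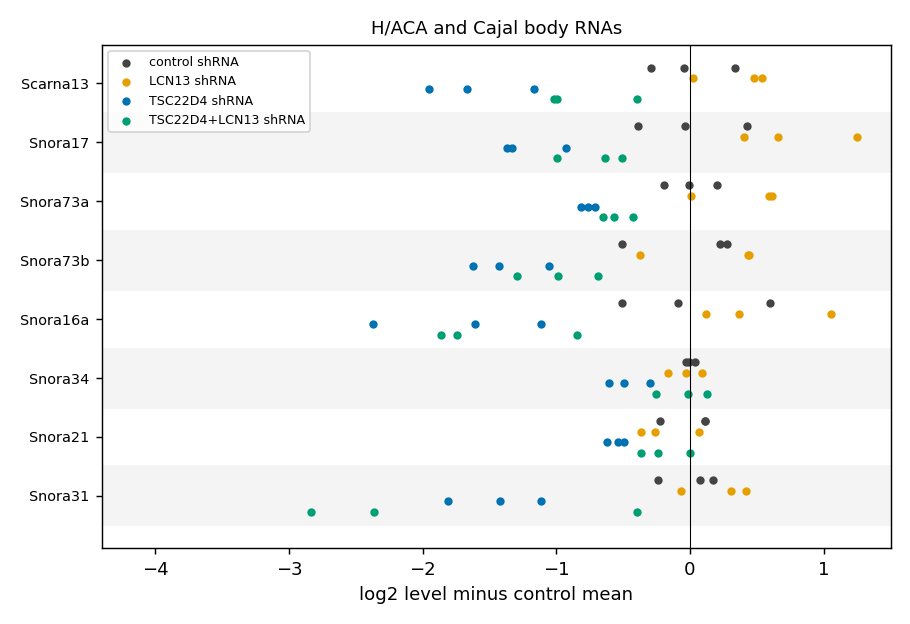
Log2 level of each array minus the control mean (horizontal axis) for Scarna13 and 7 H/ACA small nucleolar RNAs chosen after their values were seen; each dot is 1 array and colours give the 4 groups. The TSC22D4-labelled dots (blue) lie left of all control-labelled dots (grey) in each row, and Scarna13 alone passed the test.

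The TSC22D4 virus was also given beside LCN13 virus, and the comparison of TSC22D4+LCN13 with LCN13 arrays shares no array with the comparison above, though both use the same estimate of spread and in both the TSC22D4 virus took the place of control virus. There 977 genes (4.21%) passed, 305 higher (1.32%) and 672 lower (2.9%). Of the 30 genes outside the interferon list 23 lay in the same direction and 13 passed in it. The share of all genes with the same direction in both comparisons was not counted, so the 23 cannot be set against it. With a shared estimate of spread, a gene of small spread also passes more easily in both comparisons. The 7 that fell in both were Scarna13, Pnrc1, Eif2s2, Cdv3, Tent4a, Mir1956 and Matr3, and the 6 that rose in both were Ppt1, Copz1, Copz2, Ggcx, Mrps18b and Yif1b. The number 13 moved between 3 (without control animal 20) and 24 (without TSC22D4+LCN13 animal 30) when 1 array was left out, standing at 4, 5 and 8 without TSC22D4 animal 25, 26 or 27 and at 7 and 8 without animal 29 or 32 of the group with both viruses. It was 0 with each comparison fitted on its own 6 arrays, where the second comparison called 0 genes.

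Cdv3, for example, measured 8.10, 8.10 and 8.16 in LCN13 and 7.71, 7.60 and 7.62 in TSC22D4+LCN13 arrays, a difference of -0.47 (adjusted p = 0.00338) beside -0.37 in the first comparison. Matr3 fell by 0.40 (adjusted p = 0.00349) from 9.40, 9.30 and 9.38 to 8.93, 8.95 and 9.01. Among the rises, Copz2 went from 9.39, 9.38 and 9.31 to 9.71, 9.69 and 9.66 (difference 0.33, adjusted p = 0.00633) and Ggcx from 7.67, 7.50 and 7.43 to 7.94, 7.82 and 7.96 (difference 0.37, adjusted p = 0.014). In each of these 4 genes, taken from those that passed in this comparison, the groups did not overlap. The share of all genes without overlap was not counted here.

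Of the interferon-list genes fewer passed in this second comparison. Of the 48 that fell against control, 31 lay below 0 in TSC22D4+LCN13 against LCN13 arrays and 17 above. Among them 2 passed as lower, namely Oasl2 by 0.71 (adjusted p = 0.0186) and Adar, which edits adenosine in double-stranded RNA, by 0.36 (adjusted p = 0.0322). Dtx3l, an E3 ubiquitin ligase, rose there by 0.45 (adjusted p = 0.0455). The median over the 48 genes was -0.05. The test of the difference between both comparisons, the interaction, passed for 29 genes (0.125%), 24 of them positive (0.104%) and 5 negative (0.0216%). Of these genes 20 were among the 48 above and 2, Gm20559 and Gm8995, among the 30 others. Both sets had been picked by their difference from control, which the interaction subtracts. For Ppt1, Copz1, Copz2, Cdv3, Matr3 and Scarna13 the interaction did not pass, which does not show that the effects were equal.

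**Figure D4:**
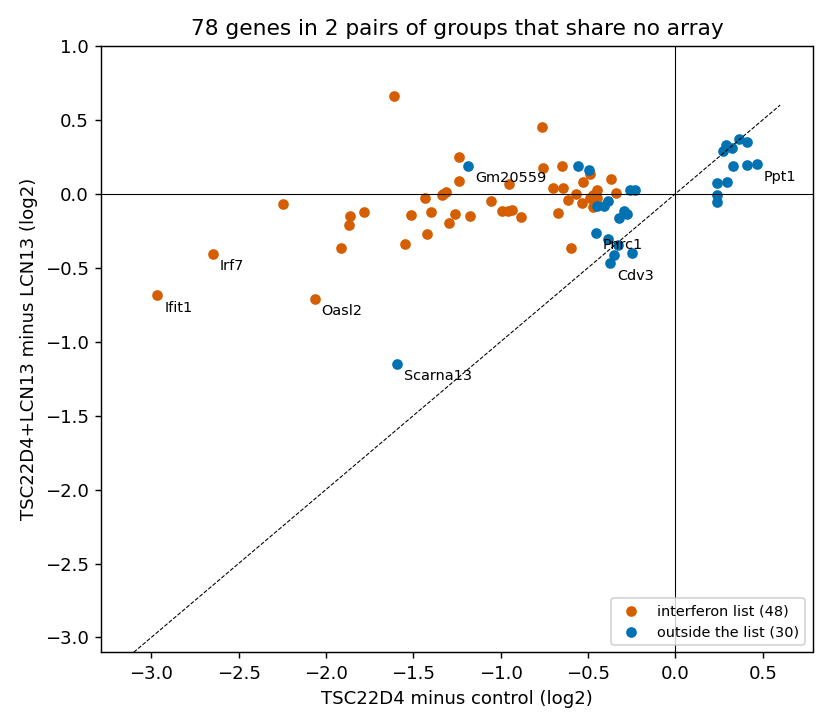
Log2 difference of TSC22D4+LCN13 minus LCN13 arrays (vertical axis) against that of TSC22D4 minus control arrays (horizontal axis) for the 78 genes that passed in the latter, with a dashed line of equal values. Most orange interferon-list points lie far above the line along 0, and many blue points of the 30 other genes lie near it, with Gm20559 among the exceptions.

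The group most alike in design, though not always in level, is LCN13, which received the same dose of control virus. TSC22D4-labelled and LCN13 arrays differed in 29 genes (0.125%), of which 19 were lower in TSC22D4 (0.0819%) and 10 higher (0.0431%). The list held Wars, a tRNA synthetase induced by interferon, and none of the 48 genes named above. Scarna13, Cdv3 (difference -0.36, adjusted p = 0.0464) and Matr3 (difference -0.32, adjusted p = 0.044) were in it, with the same TSC22D4-labelled arrays used in both comparisons. Snora17 was lower by 1.98 and Snora73a by 1.17 on the log2 scale (adjusted p = 0.0464 for both). Bmpr1a, a receptor for bone morphogenetic proteins, was lower, at 10.83, 10.81 and 10.96 in TSC22D4-labelled and 11.23, 11.21 and 11.23 in LCN13 arrays (difference -0.36, adjusted p = 0.044).

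Higher in TSC22D4-labelled than in LCN13 arrays were Asb10, a muscle gene of the SOCS box family, at 7.13, 7.14 and 7.00 against 6.47, 6.58 and 6.60 (difference 0.54, adjusted p = 0.044), and Tspan3, a tetraspanin, at 11.27, 11.29 and 11.32 against 10.87, 10.98 and 10.96 (difference 0.35, adjusted p = 0.044). Pdpr, the regulatory subunit of pyruvate dehydrogenase phosphatase, and Aldh6a1, which breaks down valine, were higher by 0.27 and 0.32 (adjusted p = 0.0469 and 0.0468). None of these 4 passed against control, with differences of 0.11 for Asb10, 0.24 for Tspan3, 0.12 for Pdpr and 0.07 for Aldh6a1. The 29 calls rested on single arrays: 0 genes passed without control animal 20, LCN13 animal 23, TSC22D4 animal 25 or TSC22D4+LCN13 animal 32, between 1 and 9 passed without control animal 18 or 19, LCN13 animal 21 and TSC22D4 animal 26 or 27, and 54 and 198 passed without TSC22D4+LCN13 animals 29 and 30.

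Pathways of insulin action and fuel use, for which these diabetic mice are used, held no gene that passed against control. In insulin signalling and glucose uptake 30 members were measured, with a median of -0.07. Irs2, an insulin receptor substrate, differed by -0.33 (adjusted p = 0.695), and Slc2a4, the insulin-regulated glucose transporter, measured 11.39, 11.50 and 11.43 against 11.42, 11.48 and 11.49. In the citric acid cycle 24 of 29 members lay above 0, with a median of 0.07. Of the 29, 8 were higher and 0 lower at an unadjusted p below 0.05, against 4.52% and 4.74% of all genes. For the breakdown of branched-chain amino acids the median of 21 members was 0.08 and 18 lay above 0, with Ppm1k, the phosphatase that activates the key dehydrogenase, at 0.30. Fatty acid uptake and oxidation had a median of 0.06 over 31 members, and oxidative phosphorylation 0.04 over 43. At the same unadjusted threshold 4 branched-chain, 6 fatty acid and 9 oxidative phosphorylation genes were higher and 0 lower. In insulin signalling 2 were higher and 3 lower.

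No glucocorticoid target, immediate early gene or gene of the cytosolic ribosome passed either, and most members of these lists lay below 0. Glucocorticoid targets had a median of -0.20, with 23 of 28 below 0. Of the 28, 8 were lower and 0 higher at an unadjusted p below 0.05, against 4.74% and 4.52% of all genes. Their median against control was -0.22 in LCN13 and -0.13 in TSC22D4+LCN13 arrays. Ddit4, an inhibitor of mTORC1 induced by glucocorticoids and stress, held the largest difference. It measured 8.11, 8.41 and 8.19 in control-labelled and 5.96, 6.66 and 7.68 in TSC22D4-labelled arrays, without overlap but with a wide spread in the latter (difference -1.47, SE 0.346, adjusted p = 0.16). Fkbp5, another glucocorticoid target, overlapped between the groups (difference -0.09, adjusted p = 0.959). Immediate early genes had a median of -0.18 over 28 members, with Zfp36 at -0.62 and Btg2 at -0.56. The cytosolic ribosome had a median of -0.08 with 23 of 31 below 0. At an unadjusted p below 0.05, 2 of the 28 immediate early and 7 of the 31 ribosomal genes were lower and 0 higher.

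**Figure D5:**
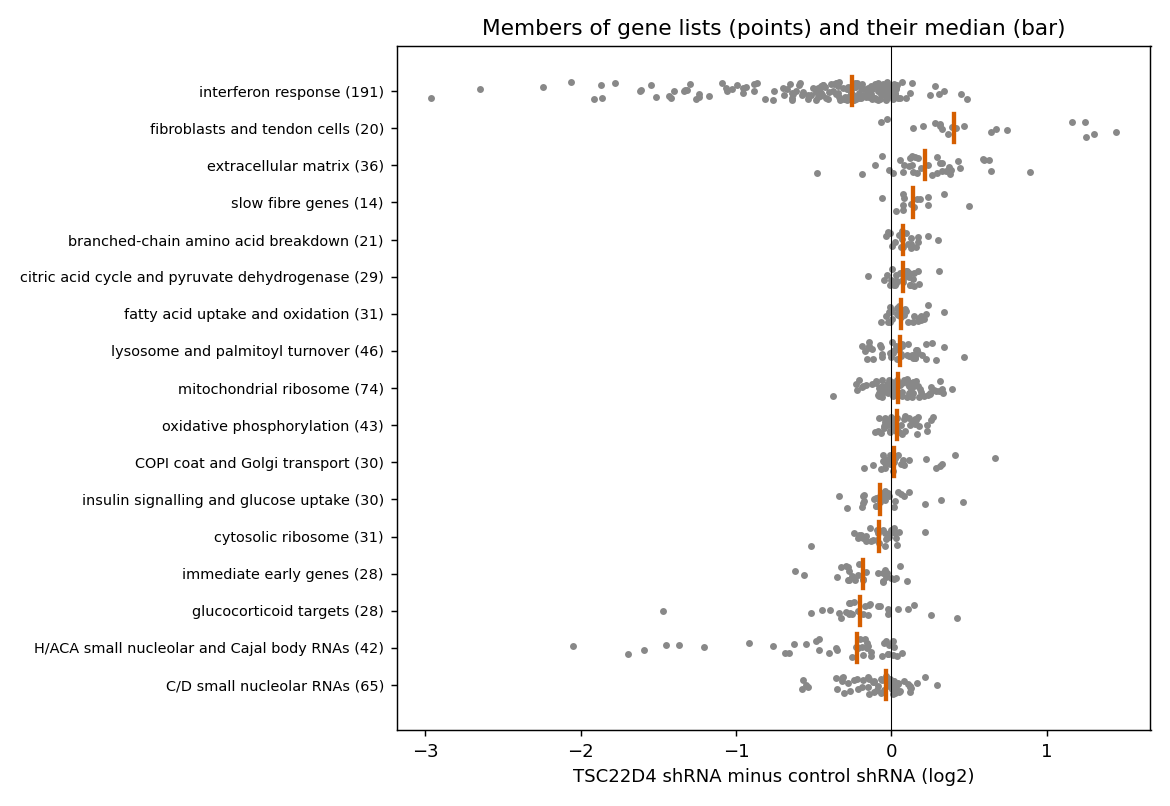
Log2 difference between TSC22D4-labelled and control-labelled arrays (horizontal axis) for each measured member (grey point) of 17 gene lists, with the median of each list as an orange bar and the number of members in parentheses. Medians outside the interferon list and the fibroblast, matrix and RNA lists lie between -0.20 and 0.14.

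Markers of other tissue compartments did not pass, and their summed levels overlapped between the groups. Of 20 fibroblast and tendon markers 18 lay above 0, with a median of 0.40, and none passed. At an unadjusted p below 0.05, 5 of these markers were higher and 0 lower, against 4.52% and 4.74% of all genes. Their summed linear level was 19325 to 30386 in control-labelled and 24486 to 37679 in TSC22D4-labelled arrays, with control animals 18 and 20 lowest, and the dimmest of the markers, Tcf21, had a mean level of 5.12 against a floor of 4.78. Tnmd, a tendon marker, measured 8.08, 9.32 and 7.85 in control-labelled and 8.99, 9.66 and 10.08 in TSC22D4-labelled arrays. Extracellular matrix genes had a median of 0.22, with 31 of 36 above 0, and 10 were higher and 0 lower at an unadjusted p below 0.05. In LCN13 and TSC22D4+LCN13 arrays the fibroblast and tendon median against control was 0.67 and 0.70. That of matrix genes was 0.31 and 0.43. These comparisons share the control arrays. With a score of tendon genes as a covariate 25 genes passed against control, 22 of them in the interferon list, 1 lower (Gm20559) and 2 higher (Ppt1 and Znrd1) outside it. Without the covariate Ppt1 differed by 0.47 and with it by 0.45 (adjusted p = 0.0124). The score was the mean of 6 tendon genes on the same arrays and covers no other cell type. More cells of a type and more RNA per cell cannot be told apart in such tissue samples. The part of tissue composition in the differences, those of Ppt1, Gm20559 and Znrd1 included, was not tested.

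Of 5 measured red cell markers none passed and 4 lay above 0, with a median of 0.22 and a summed linear level of 634 to 735 in control-labelled and 698 to 868 in TSC22D4-labelled arrays. At an unadjusted p below 0.05, 3 of the 5 were higher and 0 lower, against 4.52% and 4.74% of all genes. In TSC22D4+LCN13 against LCN13 arrays all 5 lay above 0, with a median of 0.63. There 3 of the 5 passed as higher, where 1.32% of all genes did. Hbb-b1, an adult beta globin with near-identical copies, differed by 1.11 (adjusted p = 0.406), and Alas2, the erythroid enzyme of haem synthesis, by 0.87 (adjusted p = 0.461). Hepatocyte markers had a median of -0.05, with 19 of 22 below 0 and 3 above, and 0 of 22 reached an unadjusted p below 0.05. Among them Alb differed by -1.15 (adjusted p = 0.852). Slow fibre genes had a median of 0.14 with 13 of 14 above 0, among them Casq2, a calcium-binding protein of the sarcoplasmic reticulum, at 0.50. In TSC22D4+LCN13 against LCN13 arrays all 14 of these slow fibre genes lay below 0.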

How the data were processed

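Total RNA of gastrocnemius from 12 mice had been labelled with biotin and hybridised to 1-colour Affymetrix arrays, per the labels' protocols. The authors deposited log2 levels of 25206 probe sets, made with RMA per the submitters' processing notes, which corrects background, equalises the distributions of arrays and summarises probes. For the version of RMA, the makeup of probe sets and the genome build nothing is given in the sources used here. A shift shared by most genes would be hidden by the equal distributions. Of the 12 columns 11 held identical sorted values, and the first departed by at most 0.00187. Correlations between arrays lay between 0.990 and 0.998, and 3 arrays per group limit the precision.

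A single gene symbol was given to 23185 probe sets, 1 per gene, and the other 2021 (8.02%) entered only an alternative fit, where 1 was lower and 0 higher. No filter or pseudocount was applied. The fit (limma 3.58.1, R 4.3.3, functions lmFit and eBayes) covered all 12 arrays with 4 group means (8 residual and 1.69 prior degrees of freedom). Tests were two-sided with Benjamini-Hochberg adjustment over 23185 genes within a comparison. A summed linear level is the sum of antilogged values over a list. Groups came from the labels. Each array came from a numbered animal, and no batch or date is given in the sources used here.

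The comparison, the lists and their members were chosen with earlier results of these data known. Named genes were both targets, every gene higher, the 20 largest falls outside and 8 within the interferon list, up to 4 called and 3 uncalled members of other lists, and the 10 genes with the smallest p outside the interferon list in the 2 further tests. The text names a subset. H/ACA RNAs, host genes, neighbouring genes and the zeta subunit microRNAs were looked up after values were seen. Promoters and microRNAs were matched to RefSeq tables by symbol. Alternatives were all probe sets, genes above the median level, trend and robust options, quantile normalization, centring, weights per array, each comparison on its own 6 arrays, tendon and hepatocyte scores as covariates, and each array left out.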

Additional observations from a re-analysis of the deposited data

Results flagged for a closer look

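For the following named genes the 2 comparisons of arrays with and without TSC22D4 virus differed, by the interaction term of limma at an adjusted p below 0.05. The interaction takes TSC22D4+LCN13 minus LCN13 arrays and subtracts TSC22D4 minus control arrays. The dose of control virus fell from 2e+09 units to none in the former and from 4e+09 to 2e+09 in the latter. The parts of dose, TSC22D4 virus and LCN13 virus cannot be told apart. Among interferon-induced genes it was 2.28 for Ifit1, 2.24 for Irf7, 2.18 for Cmpk2, 1.36 for Oasl2, 1.66 for Ifit2 and 1.66 for Herc6 on the log2 scale. Gm20559 and Gm8995, outside that list, had interactions of 1.38 (adjusted p = 0.0196) and 0.65 (adjusted p = 0.049). In each of these 8 genes a fall against control was smaller or absent beside LCN13 virus. All 8 were already lower in LCN13 than in control arrays, with differences from -2.58 for Irf7 to -0.45 for Gm8995. They had been picked by their falls against control, which the interaction subtracts, and that favours positive values.

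Mylip, a ubiquitin ligase that acts on the LDL receptor, had an interaction of 0.77 (adjusted p = 0.0229): it differed by -0.32 from control and was higher by 0.44 in TSC22D4+LCN13 than in LCN13 arrays. The other 5 genes differed little between TSC22D4 and control arrays and were lower in TSC22D4+LCN13 than in LCN13 arrays. Med13, a subunit of Mediator, had an interaction of -0.28 (adjusted p = 0.0229), with 10.45, 10.47 and 10.48 in TSC22D4+LCN13 and 10.79, 10.79 and 10.72 in LCN13 arrays. Kcnk15, a potassium channel, had -0.33, Tas1r1, a taste receptor, -0.27, A930016O22Rik -0.52 and 4930431P03Rik -0.33. With 1 array left out, the interaction passed in 1 of 12 fits for Tas1r1 and Gm8995 and 2 for 4930431P03Rik. It passed in 3 for Med13, 4 for Kcnk15, 5 for Mylip, 7 for A930016O22Rik and 8 for Gm20559. Tas1r1, Kcnk15 and Gm8995 had mean levels of 5.54, 5.66 and 5.66, near the median of all genes, 5.49. Without 1 array the number of genes with an interaction ranged from 3, without TSC22D4 animal 27, to 50, without control animal 19.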

How the results depend on the processing

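No paired analysis was possible because animal numbers differ between groups. The number of genes called against control, 78, was 177 with array weights, 33 with the arrays of the compared groups alone, 25 with the tendon score as a covariate, and 36 to 105 without 1 array. Interferon-list genes called lower, 48, were 17 with the compared groups alone, 22 with the tendon score and 28 to 55 without 1 array. Lower genes outside the list, 18, were 54 with array weights, 6 with the compared groups alone, 1 with the tendon score and 5 to 26 without 1 array. Higher genes, 12, were 22 among genes above the median level, 20 with trend and robust options, 60 with array weights, 2 with the tendon score and 2 to 27 without 1 array. Pathway and marker lists with a called gene, leaving out the interferon list and the groups of small RNAs, numbered 3, and were 6 above the median level, 6 with trend and robust options, 6 with array weights, 1 with the tendon score and 1 to 4 without 1 array. Genes called against LCN13, 29, were 67 above the median level, 18 with trend and robust options, 235 with array weights, 84 with the compared groups alone, 2 with the tendon score, 0 with the hepatocyte score and 0 to 198 without 1 array. Genes called in TSC22D4+LCN13 against LCN13, 977, were 543 with array weights, 0 with the compared groups alone and 318 to 1320 without 1 array. The interaction count, 29, was 51 above the median level, 2 with the tendon score and 3 to 50 without 1 array. Genes outside the interferon list called the same way in both comparisons, 13, were 6 with trend and robust options, 33 with array weights, 0 with the compared groups alone, 1 with the tendon score and 3 to 24 without 1 array. The cause of these shifts was not tested, beyond the fewer arrays or genes of some fits. None of the 30 genes outside the interferon list that passed, nor of the 8 largest falls in it, reversed under these alternatives, while Obp2a, at 0.01, lay between -0.01 and 0.02 without 1 array. Signal over background was not given with the deposited values, so which low levels are detected is not known.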

Other observations

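Further groups of genes held none that passed between TSC22D4-labelled and control-labelled arrays. Circadian clock genes had a median log2 difference of -0.11, with 13 of 19 below 0 and 1 lower at an unadjusted p below 0.05. Endothelial and pericyte markers had a median of -0.10, with 11 of 15 below 0 and none at an unadjusted p below 0.05. Macrophage markers lay above 0 in 12 of 15 cases, with a median of 0.09. Heat shock proteins and chaperones had a median of 0.02, with 5 of 24 higher and 0 lower at an unadjusted p below 0.05. Of all genes 4.52% were higher and 4.74% lower at that threshold. Of 9 measured TSC22 family genes 7 lay below 0, with a median of -0.05, and 0 reached an unadjusted p below 0.05.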
